A study of Mus musculus with 9 samples.

Results

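The genes described here are 9 genes that mark homeostatic microglia, the resident macrophages of the healthy brain: Olfml3, Fcrls, Gpr34, P2ry12, P2ry13, Tmem119, Siglech, Sall1 and Sparc. They were taken as a list of names, which was put together with earlier results of these data known, and all 9 were found by Ensembl identifier among the 53801 genes in the count data, of which 25402 had a count in any library. RNA was sequenced from 3 groups of 3 libraries made from male C57BL/6J mice 9 weeks old: sham blood (sham operation), stroke blood and stroke brain. Stroke was induced by dMCAO, in which the distal middle cerebral artery and the common carotid artery of the left side were closed for good, and stroke blood and stroke brain were taken 5 days later, while the day of sham blood was not given. Each blood library came from 1 mouse and each brain library from the ipsilesional hemispheres of 5 mice pooled. In every group cells were sorted as CD11c-Ly6G-CD11b+CD45high, a gate drawn for monocytes and macrophages, and there is no sham brain group among the 3.

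Microglia hold a set of genes that blood monocytes largely lack, and this set serves to tell the resident cells of the brain from macrophages that came from the blood. Its upkeep is known to depend on TGF-beta signaling and on the transcription factor Sall1, and several of its genes are known to fall when microglia are activated by injury. The CD45high gate is commonly used to leave resting microglia out, since their CD45 is low to intermediate.

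The members fall into 4 roles. P2ry12 and P2ry13 encode receptors for ADP, which guides microglial processes to damaged cells, and Gpr34 encodes a receptor for lysophosphatidylserine. Tmem119, Siglech and Fcrls encode proteins of the cell surface, the last 2 being a sialic acid-binding lectin and a relative of Fc receptors. Olfml3 and Sparc encode secreted proteins of the extracellular matrix. Sall1 encodes a zinc finger transcription factor that holds microglia in their resting state.

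In GRCm38, P2ry12 (chr3:59216272-59262871) and P2ry13 (chr3:59207892-59210882) lie side by side on the minus strand. Fcrls (chr3:87250758-87263738) and Olfml3 (chr3:103722222-103738001) are on the minus strand of the same chromosome. Gpr34 (chrX:13632089-13640858) and Siglech (chr7:55768178-55778925) are on the plus strand. Tmem119 (chr5:113793729-113800516), Sall1 (chr8:89027235-89044162) and Sparc (chr11:55394500-55423183) are on the minus strand. P2ry12 and P2ry13 both lie within Med12l, a Mediator subunit gene on the opposite strand, with which P2ry12 shares 9 exonic bases and P2ry13 none. Gpr34 lies within Cask, on the opposite strand, and shares no exonic base with it. The cDNA and library kits used do not mark the strand, so reads of a gene and of its antisense partner cannot be told apart where their exons overlap.

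Promoter sequences of RefSeq (build GRCm38.p6) were matched for 7 of the 9 genes, all but Gpr34 and Tmem119. Each window held the 250 bases before a gene's RefSeq start and 50 bases after it, and Sall1 had 3 windows. These starts need not be those of the coordinates given above. The RefSeq start of P2ry12 lies upstream of the gene as given above, and that of Sparc lies within the gene. Both strands were searched for GAGGAA, the core bound by PU.1 and other ETS factors of the macrophage lineage, for CAGACA, a SMAD-type element of the TGF-beta pathway, and for TGACTCA, the AP-1 element. GAGGAA was found in 2 of the 7 genes, Fcrls and P2ry13 (2 of the 9 windows of these genes), and in 23.3% of all 32851 windows. CAGACA was found in 3 of the 7, Fcrls, Siglech and Sparc (3 of the 9 windows), against 17.1% of all windows. TGACTCA was in none of the 7, against 4.46% of all windows. The sequences before the start of the neighbors P2ry12 and P2ry13, which had the highest levels of the members in blood, and of Siglech, which had no count in stroke blood, are shown 5′ to 3′ on the gene's strand, with a match to any of these motifs on either strand in capitals.
P2ry12 (chr3:59262986-59263235, minus strand): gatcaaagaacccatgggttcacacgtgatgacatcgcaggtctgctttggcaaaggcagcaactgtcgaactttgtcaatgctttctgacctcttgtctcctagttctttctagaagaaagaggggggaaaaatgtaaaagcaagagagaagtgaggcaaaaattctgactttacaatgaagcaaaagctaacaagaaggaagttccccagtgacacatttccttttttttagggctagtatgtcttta
P2ry13 (chr3:59210883-59211132, minus strand): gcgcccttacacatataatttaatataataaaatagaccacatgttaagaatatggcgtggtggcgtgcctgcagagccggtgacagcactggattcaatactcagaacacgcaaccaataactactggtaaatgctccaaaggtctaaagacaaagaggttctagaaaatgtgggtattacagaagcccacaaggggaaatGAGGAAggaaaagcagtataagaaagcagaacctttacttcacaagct
Siglech (chr7:55767934-55768183, plus strand): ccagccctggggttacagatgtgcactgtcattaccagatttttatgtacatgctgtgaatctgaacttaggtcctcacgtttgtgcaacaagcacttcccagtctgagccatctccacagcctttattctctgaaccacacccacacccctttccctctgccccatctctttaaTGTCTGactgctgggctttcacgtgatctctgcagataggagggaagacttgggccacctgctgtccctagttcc
The window of P2ry13 holds GAGGAA 48 bases before the start, that of P2ry12 holds none of the 3 motifs, and that of Siglech holds CAGACA on the opposite strand, 75 bases before the start. The printed sequences of P2ry12 and P2ry13 had 41.6% G and C and that of Siglech 50.8%, beside a median of 52.4% over all windows. These matches are letters in a window and say nothing about binding in these cells.

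Total counts were between 18475118 and 22623578 per library, and levels are given per 1000000 counts of a library (CPM). The limit of detection was set at 3 counts, which is 0.133 CPM in the deepest and 0.162 CPM in the shallowest library. Ccr2, the chemokine receptor of classical monocytes, had between 1186 and 2343 CPM in the 9 libraries. Neuronal markers were near 0 in the brain libraries, their 10 genes summing to between 0.746 and 2.68 CPM. Brain pool 1 stood apart by collagen transcripts: Col1a1, Col1a2 and Col3a1 had 224, 147 and 207 CPM there and at most 0.972 CPM in the other pools. Sham blood 1 stood apart by its lack of platelet RNA, the 13 platelet genes summing to 23.8 CPM against 551 and 800 CPM in the other sham libraries. Sample sheet number 4 occurs for both sham blood 1 and brain pool 3, so the libraries did not all come from the same sheet, and which did is not given.

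All 9 members were detected in all 3 brain pools, and every brain pool was above every blood library for each of them. Summed over the 9 genes, the brain pools had 1087, 1542 and 3339 CPM, which is 0.109%, 0.154% and 0.334% of the counts in a library. The sum was 36.7, 52.2 and 51.7 CPM in stroke blood and 26.5, 45.9 and 93.6 CPM in sham blood. The data thus hold the RNA of microglia identity genes within a gate for monocytes and macrophages, at a small share of the library. In such bulk samples more cells of a type and more RNA per cell cannot be told apart.

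**Figure D1:**
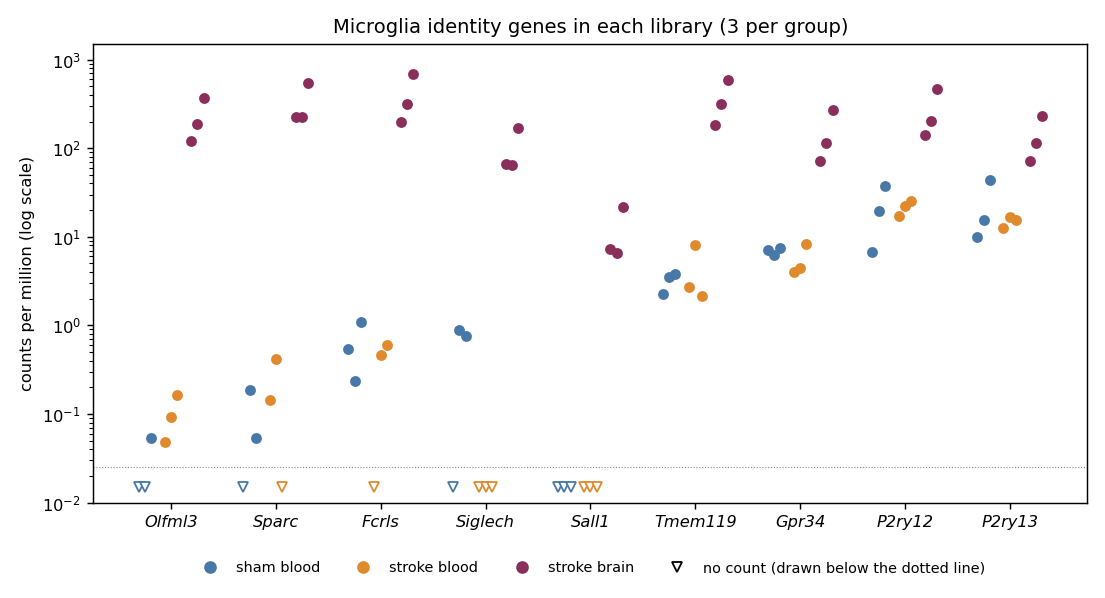
Level of each member in each of the 9 libraries, in CPM on a log axis. Points are single libraries, colored by group, and open triangles below the dotted line stand for libraries with no count. For every gene the 3 brain points lie above all 6 blood points, while P2ry12, P2ry13, Gpr34 and Tmem119 have counts in every blood library and Sall1 in none.

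P2ry12 had 141, 203 and 467 CPM in brain pools 1 to 3, the values being listed by replicate number here and below. In stroke blood it had 17.3, 22.1 and 25.2 CPM, and in sham blood 6.71, 19.5 and 37.0 CPM. It was thus well above the detection limit in every blood library, and the brain was higher by 3.50 ± 0.42 (SE) on the log2 scale against stroke blood (adjusted p = 0.000431, edgeR quasi-likelihood test with Benjamini-Hochberg adjustment, as for all adjusted p-values here). Against sham blood the brain was higher by 3.57 ± 0.68 (edgeR adjusted p = 0.0115). P2ry12 is also a receptor of platelets, the target of antiplatelet drugs.

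P2ry13 had 72.2, 114 and 234 CPM in the brain, 12.5, 16.7 and 15.3 CPM in stroke blood and 9.92, 15.4 and 43.4 CPM in sham blood. It had the smallest change of the 9 members, 3.08 ± 0.40 on the log2 scale against stroke blood (edgeR adjusted p = 0.000602). Against sham blood it was higher by 2.49 ± 0.63 (edgeR adjusted p = 0.0296), and this call depended on single libraries. Without sham blood 1, sham blood 2, brain pool 2 or brain pool 3 the adjusted p was 0.0644, 0.0969, 0.0629 and 0.0906, in a range of 0.00151 to 0.0969 over all 15 alternatives, with the brain higher in each of them. In sham blood 3, its highest blood level, P2ry13 was at 43.4 CPM, still below the lowest brain pool.

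Gpr34 had 71.1, 115 and 273 CPM in the brain. Its blood levels were 4.01, 4.41 and 8.20 CPM after stroke and 7.05, 6.16 and 7.47 CPM after sham operation. The brain did not overlap with either blood group, while the blood groups overlapped with each other, and the brain was higher by 4.64 ± 0.54 on the log2 scale against stroke blood (edgeR adjusted p = 0.000344) and 4.36 ± 0.51 against sham blood (edgeR adjusted p = 0.00196).

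Tmem119, often taken as the marker that tells microglia from other macrophages, had 181, 313 and 590 CPM in the brain. It was low but present in every blood library, at 2.70, 8.02 and 2.16 CPM after stroke and 2.24, 3.48 and 3.79 CPM after sham operation. The brain was higher by 6.24 ± 0.62 on the log2 scale against stroke blood (edgeR adjusted p = 0.00016) and by 6.72 ± 0.52 against sham blood (edgeR adjusted p = 0.000414).

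The other 5 members were at or near the detection limit in blood. Fcrls had 3736, 7111 and 14720 counts in the brain, which is 199, 314 and 681 CPM. In stroke blood it had 0, 10 and 11 counts and in sham blood 11, 5 and 20. The ratio of the pooled CPM was 1175 against stroke blood, with an exact 95% counting interval from 769 to 1899, and 680 (491 to 971) against sham blood. These intervals, and the limit of 3 counts, cover counting error only. Fcrls was thus absent from stroke blood 1 and low in the other 5 blood libraries, with its highest level in sham blood 3 (1.08 CPM).

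Siglech had 1256, 1469 and 3614 counts in the brain (67.0, 64.9 and 167 CPM) and none in the 3 stroke blood libraries. Against 3 counts in each of these, the brain was at least 671-fold higher. In sham blood it had 0, 19 and 14 counts, and the ratio of the brain to sham blood was 184 (131 to 267). Siglech is also a marker of plasmacytoid dendritic cells, so a list of 15 genes of those cells was read beside it. The list summed to 481, 508 and 588 CPM in the brain, 317, 311 and 391 CPM in stroke blood and 311, 387 and 259 CPM in sham blood. Most of the brain sum was Pltp (167, 200 and 220 CPM), Bst2 (119, 137 and 165 CPM) and Tcf4 (69.4, 81.2 and 84.2 CPM). These genes had counts in every blood library and were not called against stroke blood. Of its 13 genes tested against stroke blood, 6 were called higher and 1 lower, beside 13.1% of all genes tested called higher. The genes called higher were Pacsin1, Spib, Cox6a2, Cd209d, Lag3 and Blnk, of which Blnk had the highest brain levels (37.9, 37.9 and 54.0 CPM) and Pacsin1 the lowest (2.56, 2.12 and 2.50 CPM). Pacsin1, Cox6a2 and Lag3 needed their brain libraries to pass the filter on low counts, so that their direction was largely set beforehand. Lag3 also stands in the list of other microglia genes described below. Ccr9 was not called, at 1.39, 1.15 and 2.55 CPM, and Klk1 was too low to be tested, at most at 1.28 CPM. The part of these cells in the level of Siglech was not tested.

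Olfml3 had 2262, 4194 and 7882 counts in the brain (121, 185 and 365 CPM). In stroke blood it had 1, 2 and 3 counts, and in sham blood 0, 0 and 1. The ratio of the brain to stroke blood was 2307 with a counting interval from 1060 to 6288. Against the single count in sham blood the ratio was 13730, with an interval from 2463 to 542300. In 5 of 6 blood libraries Olfml3 lay under the limit of 3 counts, so that these ratios are known only as far as their intervals, which overlapped those of Sparc.

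Sparc had 4253, 5090 and 11677 counts in the brain (227, 225 and 540 CPM), 3, 9 and 0 in stroke blood and 0, 4 and 1 in sham blood. The ratio of the brain was 1691 (968 to 3273) against stroke blood and 4025 (1725 to 12400) against sham blood. Sparc is also strongly expressed by endothelial cells and fibroblasts. The 12 endothelial genes summed to 177, 166 and 154 CPM in the brain and to between 90.5 and 159 CPM in the blood libraries. Most of the brain sum was Slc2a1 (109, 112 and 96.1 CPM), which was at 40.9, 52.4 and 50.1 CPM in stroke blood and was not called. Against stroke blood 2 of 6 tested were called higher and 2 lower, beside 13.1% of all genes called higher. The endothelial genes called higher were Kdr, at 4.11, 5.75 and 8.61 CPM in the brain and at most 0.139 CPM in stroke blood, and Pecam1, at 28.0, 21.6 and 20.8 CPM against 8.31 to 12.9 CPM. Kdr passed the filter on low counts through its brain libraries alone, so that it had to be higher there. Cldn5 and Tek were at 0 in all 9 libraries, and Cdh5 was at most at 0.575 CPM. The 12 genes of fibroblasts and pericytes summed to 635, 21.7 and 17.3 CPM in brain pools 1 to 3 and to between 3.89 and 12.7 CPM in blood. Of 4 tested against stroke blood, 1 was called higher, beside the same share of all genes. This gene, Cspg4, had no count in blood and passed the filter through its brain libraries alone. The part of these cells in the level of Sparc was not tested. In pool 1, which held the collagen transcripts, Sparc was at 227 CPM and made up its largest share of the members' counts (20.9%), and in pool 3, where Col1a1, Col1a2 and Col3a1 had no count, it was at 540 CPM and 16.2%. Without pool 1 the members called higher were 9 against stroke blood and 9 against sham blood. Sparc passes the filter on low counts through its brain libraries alone, so this count cannot bear on the part of these cells.

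Sall1 had 137, 150 and 472 counts in the brain (7.30, 6.63 and 21.8 CPM) and no count in any of the 6 blood libraries. Against 3 counts per library the brain was at least 80.2-fold higher than stroke blood and at least 79.6-fold higher than sham blood. The transcription factor was the lowest of the 9 members in the brain.

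The 2 comparisons use the same brain libraries and are therefore not independent of each other. Against stroke blood, 9 of 9 members were called higher, which is an absolute log2 fold change above 1 with an adjusted p below 0.05, beside 1734 of 13189 genes tested (13.1%). Against sham blood, 9 of 9 were called higher beside 1270 of 13020 (9.75%). Every brain pool was above every blood library for 9 of 9 members, beside 31.9% of all genes tested against stroke blood and 27.4% against sham blood. Olfml3, Siglech, Sall1, Sparc and Fcrls passed the filter on low counts through their brain libraries alone, so that a gene of this kind had to be higher there. The other 4 members had counts in every library. An exact permutation test of 3 against 3 libraries cannot give a p below 0.1 for a single gene, so the calls rest on edgeR's estimate of the spread over all genes.

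**Figure D2:**
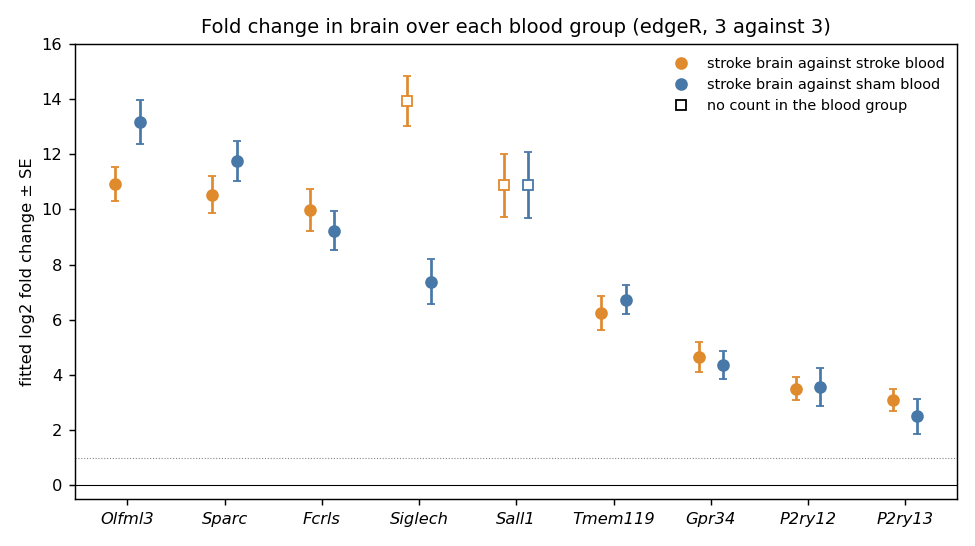
Fitted log2 fold change of stroke brain over stroke blood and over sham blood for the 9 members, with SE as bars (edgeR, 3 libraries against 3). Open squares mark members with no count in the blood group, whose fitted value depends on the prior count and is no measure of size. P2ry13 has the smallest change in both comparisons, 3.08 and 2.49, and the 3 members at the left, Olfml3, Sparc and Fcrls, have changes above that of Tmem119 in both.

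Levels of different genes can be compared only per length. Per kilobase of exon, the mean brain level was 171 CPM for Fcrls, 156 for Tmem119, 106 for P2ry12, 87.3 for Sparc, 73.3 for Gpr34, 55.3 for P2ry13, 36.3 for Olfml3, 29.5 for Siglech and 2.27 for Sall1. The SD over the 3 pools was 108 CPM per kilobase for Fcrls and 90.2 for Tmem119, and each step between neighbors in this order but the last was smaller than the SD of the higher gene. The pools share these differences, so the order was also read within each pool. Tmem119 was above P2ry12 in 3 of 3 pools (in pool 1, 78.3 against 55.5 CPM per kilobase), and Sparc above Gpr34, Gpr34 above P2ry13, P2ry13 above Olfml3 and Siglech above Sall1 kept their order in 3 of 3 as well. Fcrls was above Tmem119, P2ry12 above Sparc and Olfml3 above Siglech in 2 of 3. Sall1 at its highest (4.15) stayed below Siglech at its lowest (19.2). With the length of the principal transcript in place of all exons, Sparc moved to 144 CPM per kilobase, above P2ry12 at 115, and Siglech to 46.6, above Olfml3 at 40.9. In blood the order was another one. Per kilobase of exon, P2ry13 and P2ry12 had means of 9.07 and 8.28 CPM in sham blood, Gpr34 3.30, Tmem119 1.37 and Fcrls 0.265.

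The makeup of the summed counts therefore differed between blood and brain. P2ry12, P2ry13, Gpr34 and Tmem119 made up 97.7% of the members' counts in sham blood and 98.6% in stroke blood. In the brain they made up 46.6%, with Fcrls at 20.1%, Sparc at 16.5%, Olfml3 at 11.2%, Siglech at 4.97% and Sall1 at 0.596%.

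Stroke blood was then compared with sham blood. No member was called: 0 of the 5 that passed the filter, beside 1 of 12664 genes (0.0079%) in either direction with edgeR, 1581 genes at an unadjusted p below 0.05, and 127 genes called by DESeq2. Olfml3, Siglech, Sall1 and Sparc were too low to be tested. The log2 fold changes of stroke over sham blood were 0.08 ± 0.49 (SE) for P2ry12, -0.58 ± 0.47 for P2ry13, -0.27 ± 0.34 for Gpr34, 0.47 ± 0.51 for Tmem119 and -0.76 ± 0.99 for Fcrls. The edgeR adjusted p-values were between 0.623 and 0.956. The direction was set by single libraries for 3 of the genes. P2ry12 turned to -0.35 without sham blood 1 and to -0.08 without stroke blood 3, P2ry13 to 0.27 without sham blood 3, and Tmem119 to -0.36 without stroke blood 2.

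Of the 4 members with counts in every library, P2ry12 and P2ry13 varied most among the sham blood libraries. P2ry12 was lowest in sham blood 1, at 6.71 CPM, the library with 23.8 CPM of platelet genes. In sham blood 2 and 3 it was at 19.5 and 37.0 CPM, beside platelet sums of 551 and 800 CPM. In stroke blood it was at 17.3, 22.1 and 25.2 CPM beside sums of 388, 482 and 383 CPM. Sham blood 1 also had 1223 CPM of erythroid genes against 34180 and 30420 CPM in the other sham libraries. The part of platelets in the blood level of P2ry12 was not tested. Against stroke blood 11 of the 13 platelet genes were called lower in the brain and none higher, beside 1037 of all 13189 genes tested called lower. In the brain the platelet sum was 45.1, 65.7 and 88.7 CPM, and most of it was Pf4 (35.0, 56.5 and 78.7 CPM), which macrophages also express. Of the other platelet genes, Gp5 was at 0 in all 3 brain pools, Gp1bb was at 1.39, 1.68 and 1.06 CPM, Gp9 at 0.906, 0.486 and 1.85 CPM, and F2rl2, which was not called lower, at 5.12, 3.67 and 3.79 CPM. Their part in the brain level of P2ry12 was not tested either. P2ry13 was at 9.92, 15.4 and 43.4 CPM in the same 3 sham libraries, while Gpr34 stayed between 6.16 and 7.47 CPM. Sham blood 3 stood apart in other genes as well. The 11 neutrophil genes summed to 749, 939 and 2974 CPM in sham blood 1 to 3, and Chil3 was at 6500, 10110 and 22680 CPM. Any link of these genes to the level of P2ry13 was not tested.

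**Figure D3:**
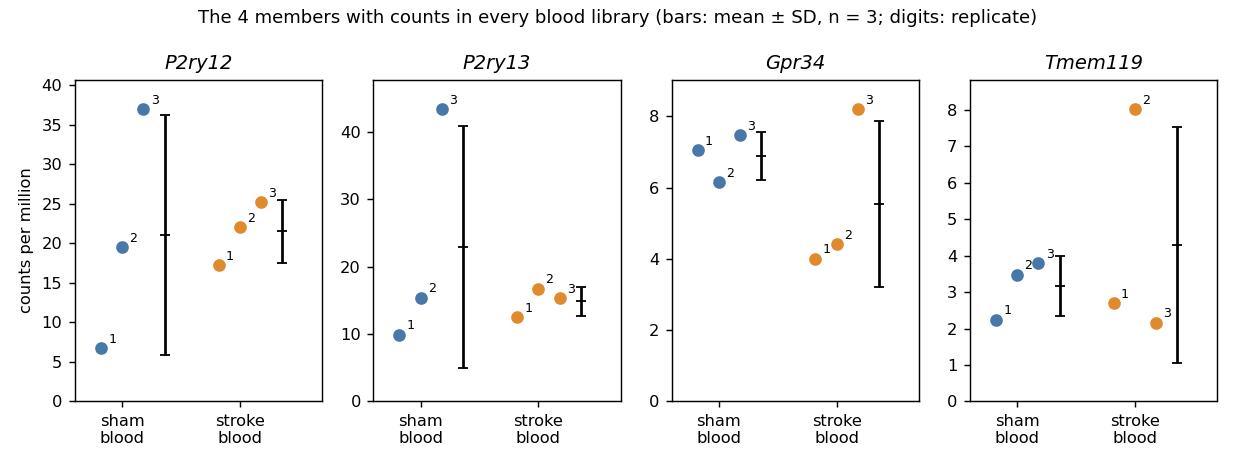
Level of P2ry12, P2ry13, Gpr34 and Tmem119 in the 6 blood libraries, in CPM on axes that start at 0. Points are single libraries with their replicate number, and bars give the mean ± SD of 3. The groups overlap for all 4 genes, P2ry12 and P2ry13 spread widely among sham libraries (6.71 to 37.0 and 9.92 to 43.4 CPM), and Tmem119 is highest in stroke blood 2 (8.02 CPM).

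The 3 brain pools differed from each other in the members more than in most genes. All 9 members were highest in pool 3, beside 28.2% of the 9232 tested genes with a mean brain level of at least 5 CPM. All 9 were at least 2-fold higher in pool 3 than in pool 1, beside 3.92% of those genes. The coefficients of variation were between 54.9% (Sparc) and 72.1% (Sall1), against a median of 15.6% over those genes. The ratio of pool 3 to pool 1 was between 2.38 for Sparc and 3.84 for Gpr34, and the median over those genes was 1.00.

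Between pools 1 and 2 the members differed in pattern. Olfml3, Fcrls, Gpr34, P2ry12, P2ry13 and Tmem119 were higher in pool 2, by ratios between 1.44 (P2ry12, counting interval from 1.37 to 1.51) and 1.73 (Tmem119, 1.66 to 1.80). For Siglech the ratio was 0.970 (0.899 to 1.05), for Sall1 0.908 (0.715 to 1.15) and for Sparc 0.992 (0.953 to 1.03), which all include equal levels. The division was seen only after the values were known, and each pool is a single library, so it has no replicate. Sparc made up 20.9%, 14.6% and 16.2% of the members' counts in pools 1 to 3 and Siglech 6.16%, 4.21% and 5.01%.

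Lists of other genes were read over the same pools. Of 32 other microglia genes, 31 were higher in pool 3 than in pool 1, with a median ratio of 1.90, and the exception was P2ry6 at 0.698. They summed to 12080, 15650 and 21340 CPM in pools 1 to 3, while the members summed to 1087, 1542 and 3339 CPM. Genes of activated microglia had a median ratio of pool 3 to pool 1 of 1.26 and border-associated macrophages, the macrophages of the meninges and vessels, of 1.79. The medians cover genes with at least 20 counts in each pool, which were 12 for border-associated macrophages. Of these 12, 11 were higher in pool 3 than in pool 1, with F13a1 at a ratio of 1.01, and Ccr1 was lower (0.918). Lyve1 and Cd209f, the genes of these cells with the largest ratios, had 4 and 10 counts in pool 1 and were outside the median. Lyve1 had 0.213, 5.66 and 13.9 CPM, and Cd209f had 0.533, 6.59 and 22.4 CPM. Classical monocyte genes had a median ratio of 1.02, but single genes went both ways, from 0.518 for Fn1 to 1.71 for Chil3. Of the 12, 8 were higher in pool 3 than in pool 1. The choroid plexus genes had their highest sum in pool 1 (260, 33.9 and 113 CPM). What part these other cells had in the differences between pools was not tested.

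**Figure D4:**
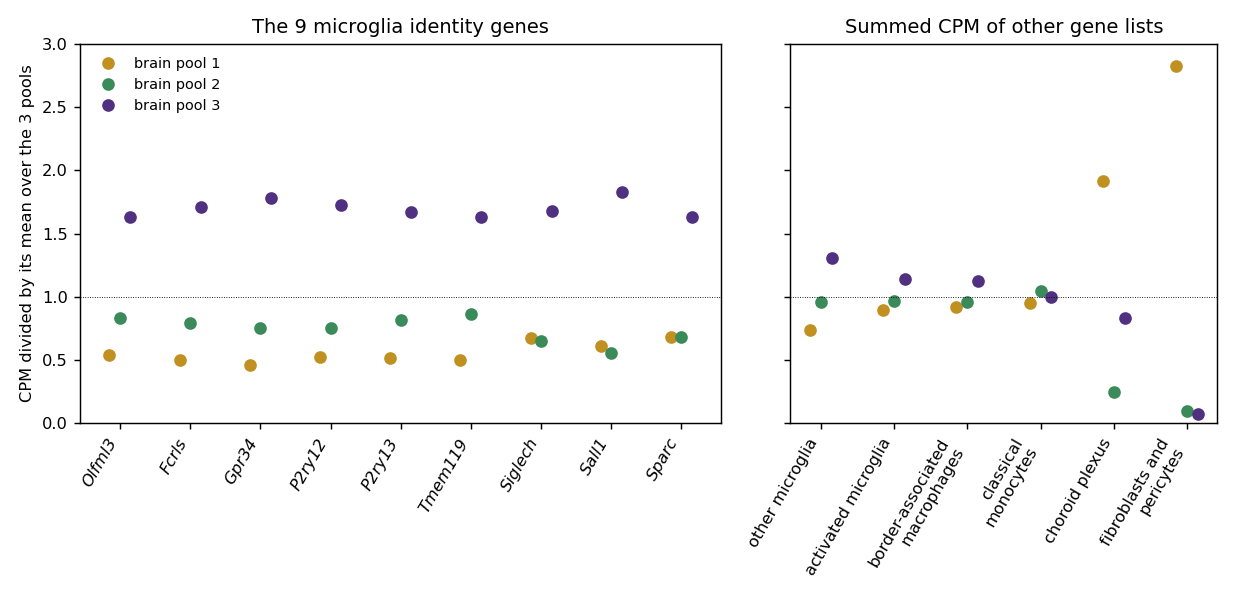
Level of each member (left) and summed level of other gene lists (right) in the 3 brain pools, each divided by its mean over the pools, with the dotted line at the mean. All members are highest in pool 3, at 1.63 to 1.83 times their mean. The sum of the classical monocyte genes stays close to its mean, and the sums of choroid plexus and of fibroblast and pericyte genes are highest in pool 1.

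The other microglia genes were compared between brain and blood with the same fits. This list was chosen with earlier results of these data known. All 32 were tested, and 24 were called higher and none lower in the brain against each blood group, beside 13.1% and 9.75% of all genes called higher, with a median log2 fold change of 3.41 against stroke blood and 3.10 against sham blood (0.06 and 0.01 over all genes tested). Of the 32, 9 were too low for the test between the blood groups and passed the filter here through their brain libraries alone, so that they had to be higher there. Against stroke blood, 3 further called genes also needed their brain libraries to pass the filter. These were Mertk (0, 0.835 and 0.971 CPM in stroke blood), C1qa (0.241, 0.186 and 1.51 CPM) and Rtn4rl1 (2.80, 1.62 and 0 CPM). Slco2b1, an organic anion transporter, and Slc2a5, a fructose transporter, had no count in stroke blood and 119 and 46.5 CPM in the brain. Sall3, a relative of Sall1, had 2.93, 1.33 and 5.55 CPM in the brain and no count in the stroke blood libraries. C1qc, a subunit of complement C1q, rose by 7.88 ± 0.49 on the log2 scale (edgeR adjusted p = 1.65e-05 against stroke blood).

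The 8 genes of this list that were not called against stroke blood all had counts in every blood library. Csf1r, the receptor that microglia and monocytes need to survive, differed by 0.26 ± 0.21 on the log2 scale (edgeR adjusted p = 0.367). Cx3cr1, the fractalkine receptor, differed by 0.59 ± 0.33 (edgeR adjusted p = 0.196), at 408, 904 and 1105 CPM in the brain and 374, 534 and 531 CPM in stroke blood. P2ry6, the receptor for UDP, differed by 0.04 ± 0.21, and Crybb1, Cst3, Selplg, Pros1 and Tgfbr1 were also not called.

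**Figure D5:**
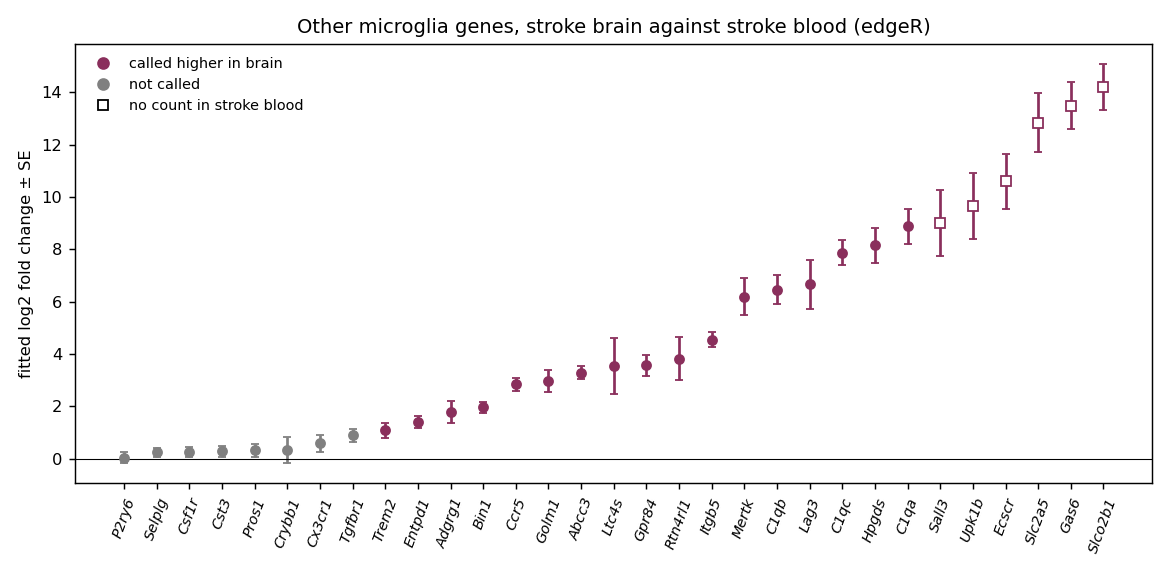
Fitted log2 fold change of stroke brain over stroke blood for 31 of the 32 other microglia genes, with SE as bars (edgeR, 3 libraries against 3), in order of size. The 23 plotted genes called higher are in purple and the 8 not called in grey, and open squares mark genes with no count in stroke blood, whose fitted value is no measure of size. The grey genes include Csf1r (0.26) and Cx3cr1 (0.59).

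Factors that set up or hold the microglia program were also compared. Of 16 tested transcription factors and TGF-beta inputs, 2 were called higher and none lower against stroke blood, beside 13.1% of all genes called higher. Their median log2 fold change was 0.48, against 0.06 over all genes tested. Mef2a rose by 0.903 ± 0.245 (edgeR adjusted p = 0.0215) and Smad2 by 0.540 ± 0.175 (edgeR adjusted p = 0.0431). The TGF-beta receptor genes Tgfbr1 and Tgfbr2 rose by 0.894 ± 0.234 and 0.754 ± 0.238 (edgeR adjusted p = 0.0182 and 0.0386). These genes stayed below the fold threshold and were not called. Csf1, a ligand of Csf1r, rose by 2.11 ± 0.61 on the log2 scale (edgeR adjusted p = 0.0286). Spi1, which encodes PU.1, differed by -0.14 ± 0.16 on the log2 scale (edgeR adjusted p = 0.551) and Irf8 by 0.08 ± 0.18 (edgeR adjusted p = 0.751). Smad3, which carries the TGF-beta signal, differed by 0.42 ± 0.27 (edgeR adjusted p = 0.269). Against sham blood 3 of the 16 were called higher, Maf and Tgfbr1 among them, beside 9.75% of all genes tested. Il34, the other ligand of Csf1r, had no count in the brain pools.

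Relatives and neighbors of the members were read the same way. Of 11 tested genes of the P2Y family and of the P2ry12 neighborhood, 4 were called higher (P2ry2, P2ry10, P2ry14 and Gpr171) and 1 lower (P2ry10b) against stroke blood. Over all genes tested, 13.1% were called higher. Gpr171 and P2ry14 lie in the same gene cluster as P2ry12 and P2ry13. Gpr171 had 103, 71.0 and 60.3 CPM in the brain and 8.40, 7.28 and 4.48 CPM in stroke blood, so that its highest pool was pool 1 and not pool 3. P2ry14, the receptor for UDP-glucose, rose by 1.35 ± 0.34 (edgeR adjusted p = 0.0163). Med12l, which spans P2ry12 and P2ry13 on the other strand, was at 1.44, 2.56 and 3.38 CPM in the brain, far below both. Of 13 tested relatives of Sparc, Olfml3, Siglech, Fcrls and Sall1, 6 were called higher and 1 lower against stroke blood, beside the same 13.1%. Siglece, a Siglec of monocytes and neutrophils, fell by 1.09 on the log2 scale (edgeR adjusted p = 0.00307). Fcrlb, a gene of the Fc receptor-like family, rose by 3.36 ± 0.87 (edgeR adjusted p = 0.0174), from 0.290, 0.557 and 0 CPM in stroke blood. Fcrlb, Sall3 and Olfml2b needed their brain libraries to pass the filter on low counts, so that their direction was largely set beforehand.

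In the same libraries the classical monocyte genes were lower in the brain than in blood. Of 12 tested, 9 were called lower and none higher against stroke blood, beside 1037 of all 13189 genes tested called lower. Their median log2 fold change was -1.51. Ly6c2, their surface marker, had 985, 924 and 772 CPM in the brain and 2868, 1974 and 2653 CPM in stroke blood. Genes of activated microglia were called higher in 14 of 20 and lower in none against stroke blood, beside 13.1% of all genes called higher. Igf1 among them needed its brain libraries to pass the filter on low counts, so that its direction was largely set beforehand. Trem2 stands in this list and among the other microglia genes. Spp1, which encodes osteopontin, had 3835, 1540 and 1768 CPM in the brain, and Gpnmb 907, 527 and 791 CPM, both highest in pool 1. Of the 20 genes of this list, however, 14 were higher in pool 3 than in pool 1, among them Apoe (8618, 11120 and 14460 CPM) and Trem2 (133, 190 and 292 CPM). Of the members, 6 were lowest in pool 1, beside 41.2% of the tested genes with a mean brain level of at least 5 CPM. Border-associated macrophage genes were called higher in 9 of 14 and lower in 2 against stroke blood, beside the same 13.1% of all genes called higher. Folr2 and Cd209f among them passed the filter through their brain libraries alone, so that they had to be higher there.

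The genes most like the members over the 9 libraries were named by the correlation of log2(CPM + 1) with the mean of the members' standardized values, among 9223 genes. The 5 highest were Plxdc2 (r = 0.997), Pmp22, Tspan7, Ak1 and Slc2a5, and Slco2b1, Hpgds and C1qc of the other microglia genes were among the highest 15. All 9 libraries fall into brain and blood, so that any gene with a like difference scores high, and 698 genes reached 0.9. Over the 3 brain pools alone, the genes with relative levels nearest to those of the members' sum were Pmp22, Slco2b1, Prune2, Plxdc2 and Cd81. Pmp22, a membrane protein best known from myelin, had 29.4, 39.4 and 90.0 CPM in the pools, and Slco2b1 67.1, 98.2 and 192 CPM. Cbr2, a gene of border-associated macrophages, was also among the nearest 10, at 16.6, 23.2 and 60.1 CPM.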

How the data were processed

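RNA of CD11c-Ly6G-CD11b+CD45high cells was measured in 9 libraries, grouped by the tissue and surgery in their labels. Per the study's methods, the authors made cDNA with the SMART-Seq HT kit and libraries with Nextera XT. Per the labels, reads were mapped to GRCm38 with HISAT2 and counted per gene with HTSeq. The authors deposited these raw counts, not normalized. Versions, annotation release and strand setting are not given in the sources used here. Counts came without molecular identifiers. GENCODE M21 gave symbols, exons and overlaps. It matched 53620 of the 53801 identifiers and 52019 by coordinates as well.

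Levels are counts per 1000000 of the library total (CPM). Tests used edgeR 4.0.16 in R 4.3.3 (quasi-likelihood, TMM, default filter on low counts, the 2 groups compared, Benjamini-Hochberg adjustment over all genes tested), with a call above 1 in absolute log2 fold change and below 0.05 in adjusted p. SE is the log2 fold change over the square root of F. Counting intervals are exact (Clopper-Pearson, 95%) on pooled counts or on 1 library each. Other work used Python 3.11.15 with pandas 2.3.3, numpy 2.4.6, matplotlib 3.10.9 and scipy 1.17.1. The fits were tested on simulated data.

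All 9 members are named, and genes of the fixed lists by counts and examples. For likeness the 15 genes of highest Pearson correlation were taken, among genes with a mean brain level of at least 5 CPM, and for the brain pools the 10 called genes of at least 20 CPM at the smallest distance. The members and lists were chosen with earlier results of these data known. Libraries of the same group were set against each other by their counts, with a chi-square of 26.2 to 152 per degree of freedom, and none was taken as a duplicate. Whether same-numbered stroke blood and brain libraries shared animals is not given. Deviations from the group means had correlations between -0.070 and 0.066 for same-numbered libraries and between -0.080 and 0.115 for the others. Since these ranges overlap, they cannot show whether the numbers pair animals, and the main fits used no block.

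The alternatives were each library left out in turn, DESeq2 1.42.0, the replicate number as a block, 1 fit of all 9 libraries, downsampled counts, normalization by RLE, by upper quartile or by library size only, low counts unfiltered or filtered at a mean of 50 counts, a threshold of 0.01 on the adjusted p, calls without a fold threshold, and TMM library sizes for the levels. Some genes of the lists are counted but not named here.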

Additional observations from a re-analysis of the deposited data

How the results depend on the processing

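The members called higher in the brain were 9 against stroke blood in every alternative, 9 to 9 when a library was left out and 9 at an adjusted p below 0.01. Against sham blood they were 7 at an adjusted p below 0.01, from 8 to 9 when a library was left out, P2ry13 being the member lost, and 9 in the others. No member was called between stroke and sham blood in any of them, and 0 to 0 when a library was left out.

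Counts over all genes moved more. Against stroke blood 2771 genes were called, 1793 at an adjusted p below 0.01 and from 2258 to 3014 when a library was left out. Against sham blood 1748 were called, 792 at an adjusted p below 0.01 and from 1146 to 1883 when a library was left out, the lowest without sham blood 3. Between stroke and sham blood 1 gene was called, 127 with DESeq2, 160 without a filter on low counts, 0 at an adjusted p below 0.01 and from 0 to 16 when a library was left out. With the replicate block 2634, 1571 and 1 genes were called in the 3 comparisons and 9, 9 and 0 members, so that it changed no call of a member. Scaling by library size only moved the median log2 fold change of all genes by 0.15 against stroke blood and by 0.12 against sham blood, and scaling by upper quartile moved it by -0.15 against stroke blood. The causes of these changes were not tested.

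Of the members' fold changes under the alternatives, 335 kept their direction and their side of the threshold, 4 lost the call (P2ry13 against sham blood) and 4 turned, all between stroke and sham blood and when a library was left out: P2ry12 to -0.35 and -0.08 (range to 0.76), P2ry13 to 0.27 (range from -0.94) and Tmem119 to -0.36 (range to 0.77). The levels moved by less than 1 SD in 108 of 108 alternatives. Depth limits what can be said of Olfml3, Siglech, Sall1 and Sparc in blood, where most libraries had 3 counts or fewer.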
